A study of Mus musculus with 6 samples.

Results

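Xbp1 and 9 genes of the endoplasmic reticulum (ER) folding machinery that Xbp1 and its partner factors are known to drive (Hspa5, Hsp90b1, Pdia3, Pdia4, Dnajb9, Sdf2l1, Herpud1, Calr and Canx) were followed in RNA sequencing of C57BL/6 mouse samples whose labels name mesenchymal stromal cells of the bone marrow. They were taken by symbol from the deposited count table, which held all 10, and all 10 passed the filter on low counts, among 14756 genes tested with 6 libraries and 16190 with 5. Counts of 3 libraries labelled Hes1 KO were compared with those of 3 labelled WT. Per the labels' protocols, mice heterozygous for a floxed Hes1 allele (Hes1fl/+) were bred with Prx1Cre mice, whose Cre recombinase is made in early limb bud and some craniofacial mesenchyme, and the line was backcrossed. The extraction text, the same for both groups, names heterozygous Hes1fl/+ mice as the source of the RNA. The sources used here do not give whether 1 or both alleles were deleted, whether the WT mice carried Cre or a floxed allele, the age and sex of the mice or any pooling of animals. The treatment field of the labels repeats the genotype and names no agent. Hes1, the targeted repressor, had 185, 220 and 255 counts in the Hes1 KO libraries, and 0, 310 and 345 in those of WT. Replicates 1, 2 and 3 are given in this order throughout. The libraries differed in depth, and WT replicate 1 held 66167 counts in all. In CPM scaled as described below, Hes1 was at 7.13, 10.7 and 10.9 in Hes1 KO, against 44.5 and 71.9 in WT replicates 2 and 3. Its log2 fold change was -2.55 (SE 0.31) without WT replicate 1 (edgeR, Benjamini-Hochberg, adjusted p = 0.0294). With all 6 libraries it was -2.12 (SE 1.01, adjusted p = 0.364).

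Proteins that enter the secretory pathway are folded in the ER by Hsp70 and Hsp90 type chaperones, by protein disulfide isomerases and by lectin chaperones that hold glycoproteins. When unfolded proteins build up, 3 sensors of the ER membrane (Ern1, Atf6 and Eif2ak3, also called IRE1, ATF6 and PERK) start the unfolded protein response: Ern1 splices Xbp1 mRNA into the form that codes for the active transcription factor, and Atf6 and Xbp1 raise the chaperones and the machinery that removes misfolded proteins. In bone marrow this output is known to be high in cells that secrete a great deal, such as plasma cells and developing granulocytes. The table counts whole genes, so spliced and unspliced Xbp1 were not told apart.

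The stretches before the gene starts are shown because ATF6 and XBP1 are known to act through short elements there. The motifs below were searched on both strands of the RefSeq promoter windows (GRCm38.p6, 250 bases before to 50 after each start), which were found for all 10 genes: the ER stress response element ERSE (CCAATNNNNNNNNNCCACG), the element ERSE-II (ATTGG, any base, CCACG) and the core of the unfolded protein response element (TGACGTGG). ERSE was present in 39 of 32851 windows (0.119%) and in 4 of the 10 genes, Hspa5, Hsp90b1, Calr and Canx. ERSE-II was present in 12 windows (0.0365%), among them that of Herpud1, and TGACGTGG in 222 windows (0.676%) and in 0 of the 10. The windows of Xbp1, Pdia3, Pdia4, Dnajb9 and Sdf2l1 held none of these exact letters, which says nothing of elements with other letters or elsewhere. The 250 bases before the start are printed 5′ to 3′ on the gene's strand for a chaperone with 1 ERSE (Hspa5, chr2:34771840-34772089, + strand), for one with 2 (Hsp90b1, chr10:86705445-86705694, - strand), for Herpud1, which had ERSE-II and the opposite direction of change (chr8:94386179-94386428, + strand), and for Sdf2l1, which had no match and the highest fold change of the 10 without WT replicate 1 (chr16:17132384-17132633, - strand). Capitals mark the matches, and these coordinates are of GRCm38.p6 while the counts were made on GRCm39.
Hspa5: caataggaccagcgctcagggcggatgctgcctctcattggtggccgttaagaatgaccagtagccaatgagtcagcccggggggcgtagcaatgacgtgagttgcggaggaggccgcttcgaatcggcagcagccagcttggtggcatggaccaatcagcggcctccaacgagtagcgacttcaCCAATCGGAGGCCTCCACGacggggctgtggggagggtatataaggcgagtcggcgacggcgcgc
Hsp90b1: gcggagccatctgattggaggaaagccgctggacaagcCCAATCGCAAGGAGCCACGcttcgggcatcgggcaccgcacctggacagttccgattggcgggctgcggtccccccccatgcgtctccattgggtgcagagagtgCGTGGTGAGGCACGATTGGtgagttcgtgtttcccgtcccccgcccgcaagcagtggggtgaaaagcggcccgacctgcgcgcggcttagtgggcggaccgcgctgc
Herpud1: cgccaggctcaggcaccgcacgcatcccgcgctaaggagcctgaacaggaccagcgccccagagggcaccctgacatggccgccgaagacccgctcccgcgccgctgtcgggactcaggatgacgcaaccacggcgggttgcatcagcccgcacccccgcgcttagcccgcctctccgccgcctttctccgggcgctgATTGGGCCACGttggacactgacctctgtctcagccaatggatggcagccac
Sdf2l1: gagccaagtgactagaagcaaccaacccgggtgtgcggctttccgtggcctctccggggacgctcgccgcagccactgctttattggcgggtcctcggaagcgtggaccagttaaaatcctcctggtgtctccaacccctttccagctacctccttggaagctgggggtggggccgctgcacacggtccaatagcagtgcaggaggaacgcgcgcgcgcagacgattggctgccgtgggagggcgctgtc
Counted from the start, with -1 as the last base before it, ERSE lay at -65 to -47 in Hspa5 and at -212 to -194 in Hsp90b1. The second match in Hsp90b1, at -107 to -89, was on the opposite strand, as was that of Calr at -162 to -144. ERSE lay at -145 to -127 in Canx, and ERSE-II at -52 to -42 in Herpud1.

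The libraries were of unequal depth and content. The Hes1 KO libraries held 20563116 to 22131465 counts, while WT replicates 1, 2 and 3 held 66167, 5812598 and 12109170. WT replicate 1 is therefore shown apart: its 10 genes had 653 counts in all, against 11737 to 136845 in the other libraries. Levels below are scaled CPM, CPM computed on library sizes multiplied by TMM factors, which set libraries to the level of most of their genes, with all 6 libraries. In WT replicate 3 erythroid markers took 42.8% of counts, against at most 0.339% elsewhere, and its TMM factor was 0.397, so its plain CPM are lower than its scaled CPM. A single count was worth 9.47 scaled CPM in WT replicate 1 and at most 0.209 in the others. The labelled cell type was scarcely visible: the 15 stromal markers, of which Eng and Cxcl12 were the most abundant, summed to 0.00495% to 0.0078% of counts in the Hes1 KO libraries and to 0.00296% to 0.00707% in the WT libraries, where 12, 5 and 4 of the 15 were at 0.

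Without WT replicate 1, Xbp1, Pdia3 and Sdf2l1 rose in Hes1 KO and Herpud1 fell. Xbp1, the transcription factor, was 2.33-fold higher, Pdia3, an isomerase of glycoproteins, 2.68-fold higher, and Sdf2l1, a partner of the chaperone Hspa5, 5.5-fold higher, while Herpud1, which recruits the degradation machinery of the ER membrane, was 2.66-fold lower. The other 6 did not pass, and of them Dnajb9 had a lower level in the Hes1 KO libraries and 5 had higher levels. Of the 16190 genes tested in these 5 libraries (3 Hes1 KO, 2 WT) 7.44% rose and 8.09% fell, or 1204 and 1309 genes. With upper quartile factors in place of TMM the split was 803 and 1790, and of the 10 genes Sdf2l1 and Herpud1 still passed while Xbp1 and Pdia3 did not. Among the 3598 of them at least as abundant as the least abundant of the 10 genes, a set chosen after the data were seen, 11.9% rose and 7.28% fell. The median log2 fold change of the 10 genes was 0.86, against 0.02 over all genes tested and 0.11 over those 3598.

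With all 6 libraries 0 of the 10 genes passed, as 0 of 14756 genes (0%) passed anywhere in the table (edgeR, Benjamini-Hochberg). At an unadjusted p under 0.05 there were 2 of the 10, Xbp1 and Herpud1, and 2200 of all genes, and neither DESeq2 nor limma-voom passed any of the 10. The median log2 fold change of the 10 was 0.69, with 6 higher and 4 lower in Hes1 KO, against 0.03 over all genes. On scaled CPM the 3 Hes1 KO libraries lay above all 3 WT libraries for 4 genes (Xbp1, Hspa5, Pdia4 and Sdf2l1), below them for 1 (Herpud1) and overlapped for 5, while 22.5% of all tested genes lay above and 5.15% below. On plain CPM the groups were apart for Xbp1 and Pdia4 alone among the 10, with 2 and 0 counts in WT replicate 1. The share of all tested genes with groups apart on plain CPM was not counted. The calls without WT replicate 1 also ended when any Hes1 KO library was left out, when libraries were scaled by their totals, and with the replicate number as a block; 0 genes of the whole table passed in each of these fits.

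**Figure D1:**
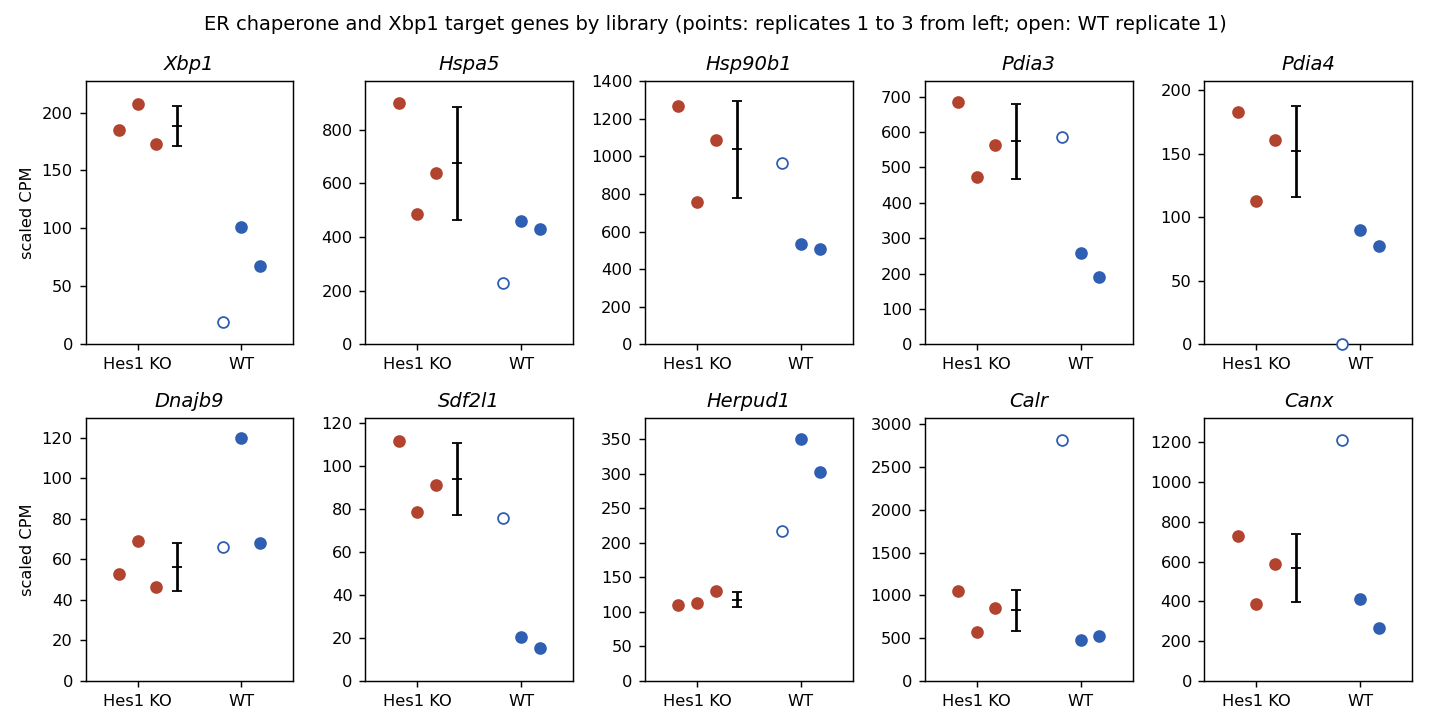
Scaled CPM of the 10 genes (vertical axes, each from 0) in each library, with Hes1 KO at left and WT at right in each panel; the open point is WT replicate 1, and the bar is the mean ± SD of Hes1 KO (n = 3). Herpud1 is the panel where every WT point lies above every Hes1 KO point, and the open point stands far above the rest for Calr and Canx.

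**Figure D2:**
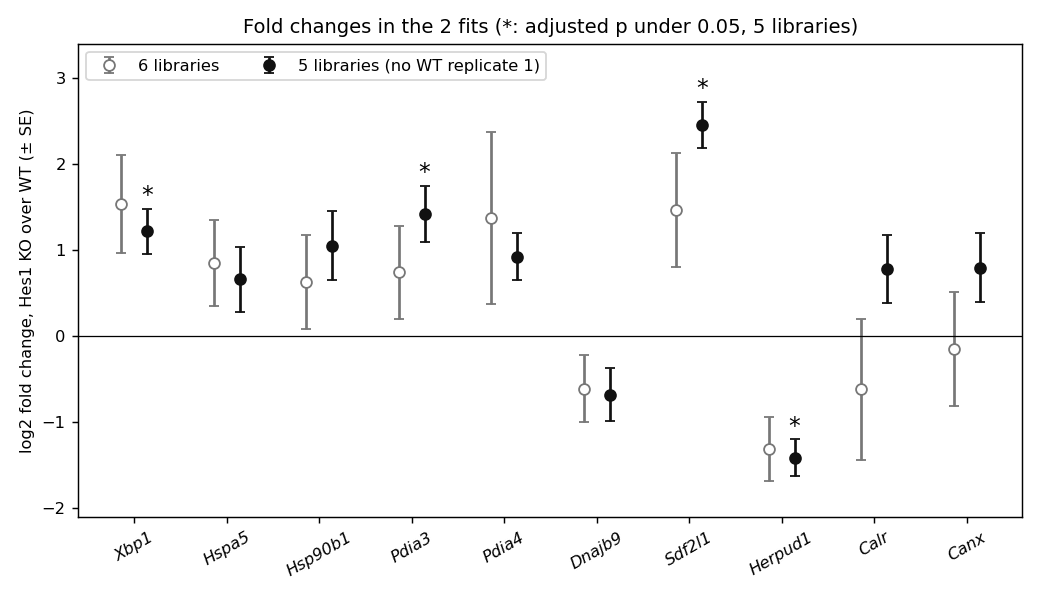
Log2 fold change (Hes1 KO over WT, ± SE) of the 10 genes with 6 libraries (open) and with 5, without WT replicate 1 (filled); stars mark adjusted p under 0.05 with 5 libraries. Calr and Canx change sign between the fits, from -0.62 and -0.15 to 0.78 and 0.80.

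Xbp1, the transcription factor of the response, had 4797, 4265 and 4062 counts in the Hes1 KO group and 2, 704 and 325 counts in WT replicates 1, 2 and 3. This made 185, 207 and 173 scaled CPM in the Hes1 KO libraries (mean 188 ± 17.1 SD, n = 3) and 18.9, 101 and 67.8 in WT. All 3 Hes1 KO libraries were above every WT library, also on plain CPM (198 to 217 against 26.8 to 121). The 2 counts of WT replicate 1 allow 5.19 to 69.1 scaled CPM (Wilson 95% interval, counting error only). The log2 fold change was 1.22 (SE 0.26) without that library and passed (edgeR, Benjamini-Hochberg, adjusted p = 0.0393), and 1.54 (SE 0.57) with it (adjusted p = 0.316).

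Hspa5 (BiP), the Hsp70 of the ER lumen that also holds the 3 sensors inactive, was at 901, 485 and 640 scaled CPM in the Hes1 KO group (mean 675 ± 211 SD, n = 3), against 227, 461 and 430 in WT. The lowest Hes1 KO library lay just above the highest WT library, and on plain CPM the groups overlapped (472 to 1057 against 170 to 553). Its log2 fold change was 0.66 (SE 0.38) without WT replicate 1 and did not pass (edgeR, Benjamini-Hochberg, adjusted p = 0.24). Hsp90b1 (GRP94), the Hsp90 of the ER that folds integrins and Toll-like receptors, was at 1266, 758 and 1088 scaled CPM in the Hes1 KO group, against 966, 533 and 509 in WT. WT replicate 1, with 102 counts, lay between the Hes1 KO libraries, and the other WT libraries lay below all of them. Its log2 fold change was 1.06 (SE 0.40) without that library and did not pass (adjusted p = 0.112).

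Of 2 partners of Hspa5, Sdf2l1 rose without WT replicate 1 and Dnajb9 did not pass. Sdf2l1, which keeps Hspa5 clients from aggregating, had 2897, 1621 and 2134 counts in the Hes1 KO group and 8, 142 and 73 counts in WT, or 112, 78.7 and 91 against 75.8, 20.4 and 15.2 scaled CPM. WT replicates 2 and 3 were well below Hes1 KO, while WT replicate 1 lay just below the lowest Hes1 KO library, and its 8 counts allow 38.4 to 149.5 (Wilson 95% interval). The log2 fold change of Sdf2l1 was 2.46 (SE 0.27) without WT replicate 1 (edgeR, Benjamini-Hochberg, adjusted p = 0.0294, the rank 61 smallest p of 16190) and 1.47 (SE 0.66) with it (adjusted p = 0.35). Dnajb9 (ERdj4), a J-domain protein that returns Hspa5 to the sensor Ern1 and feeds clients to degradation, was at 52.6, 69.3 and 46.6 scaled CPM in the Hes1 KO group, against 66.3, 120 and 68.2 in WT. The groups overlapped. Its log2 fold change was -0.68 (SE 0.31) without WT replicate 1 and -0.61 (SE 0.39) with it, and neither passed (edgeR, Benjamini-Hochberg, adjusted p = 0.158 and 0.49).

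Pdia3 (ERp57), the disulfide isomerase that works with the lectin chaperones and in the loading of MHC class I, had 17752, 9773 and 13215 counts in the Hes1 KO group and 62, 1801 and 906 counts in WT. Its scaled CPM were 684, 474 and 564 in the Hes1 KO libraries (mean 574 ± 105 SD, n = 3) and 587, 258 and 189 in WT. WT replicate 1 lay among the Hes1 KO libraries (Wilson 95% interval 458 to 753) and the other WT libraries lay below them all. The log2 fold change was 1.42 (SE 0.33) without WT replicate 1 (edgeR, Benjamini-Hochberg, adjusted p = 0.0446) and 0.75 (SE 0.54) with it (adjusted p = 0.534). Pdia4 (ERp72), an isomerase that binds Hspa5 clients, was at 183, 113 and 160 scaled CPM in the Hes1 KO group, against 89.6 and 77.4 in WT replicates 2 and 3. WT replicate 1 had 0 counts of it, where 3 counts would make 28.4 scaled CPM. Its log2 fold change was 0.93 (SE 0.27) without WT replicate 1 and did not pass (edgeR, Benjamini-Hochberg, adjusted p = 0.0697).

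Calr and Canx, the soluble and the membrane-bound lectin chaperone of the glycoprotein cycle, differed in sign between the fits with and without WT replicate 1. Calr was at 1053, 575 and 854 scaled CPM in the Hes1 KO group, against 2813, 483 and 521 in WT, and the high value rests on 297 counts (Wilson 95% interval 2511 to 3151). Canx was at 728, 388 and 586 in the Hes1 KO group, against 1212, 414 and 268 in WT, the first from 128 counts (1020 to 1441). WT replicate 1 was above every Hes1 KO library for both, beyond its counting error. The log2 fold changes were -0.62 (SE 0.82) for Calr and -0.15 (SE 0.66) for Canx with all libraries, and 0.78 (SE 0.39) and 0.80 (SE 0.40) without WT replicate 1. None of the 4 values passed (edgeR, Benjamini-Hochberg, adjusted p = 0.74, 0.93, 0.192 and 0.188).

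Herpud1, a membrane protein that gathers the ubiquitin ligase complex of ER-associated degradation, was the gene of the 10 that fell. It had 2858, 2319 and 3050 counts in the Hes1 KO group and 23, 2445 and 1452 counts in WT. Its scaled CPM were 110, 113 and 130 in the Hes1 KO libraries (mean 118 ± 10.9 SD, n = 3) and 218, 351 and 303 in WT (mean 290.5 ± 67.4 SD, n = 3). Every WT library was above every Hes1 KO library, and the lower bound of WT replicate 1 was 145 (Wilson 95% interval 145 to 327). On plain CPM the groups overlapped, since WT replicate 3 was at 120 and Hes1 KO at 110 to 148. The log2 fold change was -1.41 (SE 0.21) without WT replicate 1 (edgeR, Benjamini-Hochberg, adjusted p = 0.03) and -1.31 (SE 0.37) with it (adjusted p = 0.31).

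Ratios between genes of the same library do not depend on scaling or depth, and are given as a description of pairs picked after the values were seen. Counts of Herpud1 were 0.122, 0.232 and 0.203 of those of Hspa5 in the Hes1 KO libraries and 0.958, 0.761 and 0.704 in WT. The 3 WT libraries were thus above all Hes1 KO libraries, WT replicate 1 among them, although its ratio comes from 23 and 24 counts. Counts of Sdf2l1 were 0.124, 0.162 and 0.142 of those of Hspa5 in the Hes1 KO libraries and 0.333, 0.0442 and 0.0354 in WT, so that WT replicate 1 (8 and 24 counts) stood on the other side of Hes1 KO from its group. The ratio of Pdia3 to Hspa5 was 0.759 to 0.978 in the Hes1 KO libraries and 2.58, 0.561 and 0.439 in WT. The ratio of Xbp1 to Hspa5 overlapped, at 0.205 to 0.427 and 0.0833 to 0.219. Of the summed counts of the 10 genes, Herpud1 made 2.09% to 3.45% in the Hes1 KO libraries and 3.52%, 12.4% and 12.4% in WT, while Calr made 45.5% in WT replicate 1 and 17.1% to 21.3% in every other library.

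**Figure D3:**
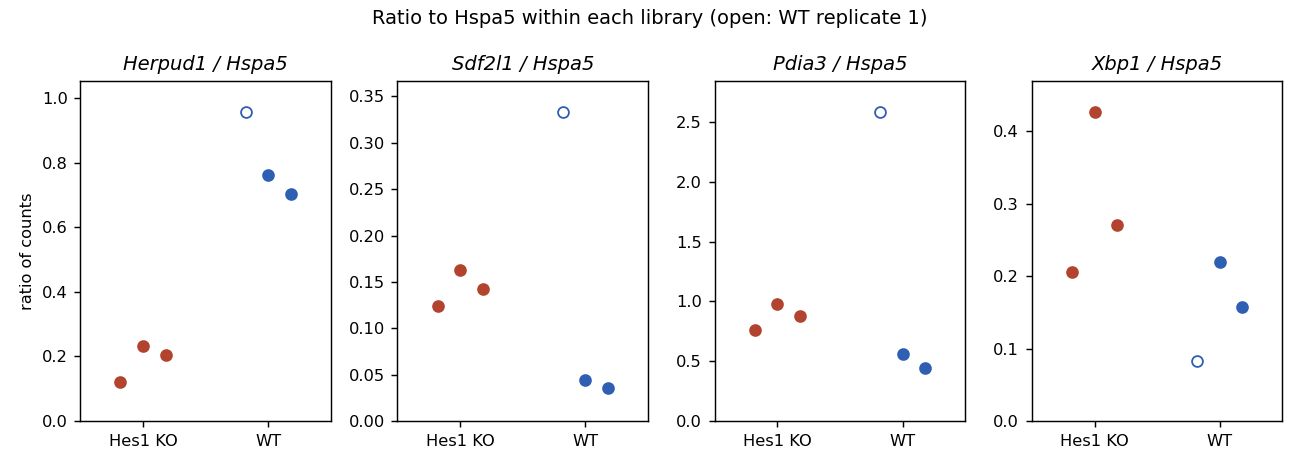
Counts of Herpud1, Sdf2l1, Pdia3 and Xbp1 divided by those of Hspa5 in the same library (linear axes from 0), with WT replicate 1 open. Herpud1 to Hspa5 is 0.704 to 0.958 in the 3 WT libraries and 0.122 to 0.232 in Hes1 KO, while WT replicate 1 parts from the other WT libraries for Sdf2l1 and Pdia3.

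Several of the genes shared an order of libraries within a group. Hes1 KO replicate 1 was above replicate 3 and replicate 3 above replicate 2 for 7 of the 10 genes (Hspa5, Hsp90b1, Pdia3, Pdia4, Sdf2l1, Calr and Canx). Xbp1 and Dnajb9 instead were highest in Hes1 KO replicate 2. That library, where the 7 genes were lowest, had the largest share of neutrophil markers, 13.4% of counts, against 4.99% and 6.1% in replicates 1 and 3. Whether this share bears on either order was not tested. WT replicate 2 was above WT replicate 3 for 9 of the 10 on scaled CPM, Calr being the exception, and for all 10 on plain CPM. The share of all tested genes with these orders was not counted. The 10 genes together took 0.618%, 0.317% and 0.494% of counts in the Hes1 KO libraries and 0.987%, 0.339% and 0.0969% in WT replicates 1, 2 and 3.

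Levels of different genes were compared per kilobase of exon (GENCODE vM21 lengths by symbol). In Hes1 KO the order of mean levels was Calr at 379 ± 110 scaled CPM per kb and Hsp90b1 at 367 ± 91.2, then Pdia3 at 207 ± 38.1, Hspa5 at 180 ± 56.1 and Canx at 132 ± 39.8 (SD, n = 3). Below them came Sdf2l1 at 84.6 ± 15.1, Xbp1 at 78.8 ± 7.17, Pdia4 at 63.4 ± 15, Herpud1 at 60.2 ± 5.57 and Dnajb9 at 22.8 ± 4.78. The neighbours Calr and Hsp90b1, Pdia3 and Hspa5, Sdf2l1 and Xbp1, and Pdia4 and Herpud1 differed by less than the SD of either. In WT replicates 2 and 3 Herpud1 was at 180 and 155 scaled CPM per kb, behind Calr (221 and 238) and Hsp90b1 (189 and 180), and Sdf2l1 was the lowest of the 10 at 18.4 and 13.7.

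The sensors of the response were then examined in the same 5 libraries. Ern1, which splices Xbp1, was at 87.3, 60.6 and 77.8 scaled CPM in the Hes1 KO group, against 189, 108 and 32.3 in WT (log2 fold change 0.17, SE 0.49), and Atf6 at 84.8 to 102 and 80.9 to 116 (-0.05, SE 0.24). Neither passed (edgeR, Benjamini-Hochberg, adjusted p = 0.822 and 0.889). Eif2ak3, the PERK kinase that slows translation, fell by 1.35 on the log2 scale (SE 0.21, adjusted p = 0.0300, edgeR, Benjamini-Hochberg), from 189 and 144 scaled CPM in WT replicates 2 and 3 to 57.8, 63.6 and 65.9, while WT replicate 1 had 3 counts. Atf6b, a homologue of Atf6, rose by 0.89 (SE 0.19, adjusted p = 0.0405), from 49.5 and 52.3 scaled CPM in WT replicates 2 and 3 to 88.3, 98.4 and 84.1. WT replicate 1 stood on the other side of Hes1 KO from its group for both genes, at 28.4 for Eif2ak3 and, from 12 counts, at 114 for Atf6b. Of 9 tested genes of the sensor list 1 rose and 1 fell, near the shares of all tested genes (7.44% rose and 8.09% fell), as were the counts of the next list. Of 10 genes of the PERK and ATF4 output 1 rose, the stress-induced nuclear protein Nupr1 by 4.45, and 1 fell, the stress factor Ddit3 (CHOP) by 1.15. Nupr1 had only 5 and 1 counts in WT replicates 2 and 3. In WT replicate 1 it was at 9.47 scaled CPM from 1 count, among the Hes1 KO libraries (7.76 to 14.1). Ddit3 had 0 counts in WT replicate 1.

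In the folding and export machinery 22 of 25, 28 of 32 and 17 of 19 tested genes of 3 lists had higher levels in Hes1 KO. Of all genes tested without WT replicate 1, 50.7% had higher levels. Of the 25 tested ER folding cofactors 12 rose and 0 fell (median log2 fold change 1.12), among them the peroxiredoxin Prdx4 by 1.83, the prolyl isomerase Ppib by 1.81, and the disulfide isomerases P4hb by 1.70 and Pdia6 by 1.63. Of 32 genes of ER translocation and glycosylation 12 rose and 0 fell (median 0.79), including the translocon-associated Ssr4 by 1.72, the signal peptidase subunit Spcs1 by 1.60, Srp9 of the signal recognition particle by 1.46 and the oligosaccharyltransferase subunit Rpn1 by 1.45. Of 19 genes of ER to Golgi transport 8 rose and 0 fell (median 0.86), such as the cargo receptors Tmed3 by 1.996, Tmed2 by 1.22 and Tmed10 by 1.20 and Kdelr1, which returns chaperones to the ER, by 1.28. These counts stand beside 7.44% of all tested genes that rose and 8.09% that fell. In WT replicate 1 Tmed10 was at 208 scaled CPM from 22 counts, above every Hes1 KO library (185 to 207). P4hb (729) and Pdia6 (284) lay there among the Hes1 KO libraries (617 to 745 and 221 to 340). Prdx4 (18.9), Srp9 (56.8), Rpn1 (218) and Tmed2 (37.9) lay there below every Hes1 KO library. Ppib, Ssr4, Spcs1, Tmed3 and Kdelr1 had 0 counts in WT replicate 1.

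Of 18 genes of ER-associated degradation, the list closest to Herpud1, 3 rose and 3 fell (median 0.49). Of all tested genes 7.44% rose and 8.09% fell. Levels without WT replicate 1 were higher in Hes1 KO for 12 of the 18. The mannosidase-like Edem2 rose by 1.29. Edem3, of the same family, fell by 1.23, the lectin Erlec1 by 1.18 and Syvn1 (HRD1), the ubiquitin ligase that Herpud1 joins, by 1.06. Syvn1 was at 77.6, 76.9 and 103 scaled CPM in the Hes1 KO group, against 158 and 215 in WT replicates 2 and 3, with 1 count in WT replicate 1. That count made 9.47 scaled CPM, below every Hes1 KO library. Erlec1 was likewise at 9.47 there from 1 count, below Hes1 KO (34.9 to 35.5). Edem3 was at 123 there from 13 counts, above Hes1 KO (65.9 to 97.7), and Edem2 at 18.9 from 2 counts, below it (65 to 73.8). Among chaperones of other compartments the counts were near those shares or below them. Of 22 cytosolic chaperones 1 rose, the Hsp90 partner Fkbp4 by 1.21, and 1 fell, the J-domain protein Dnajb6 by 1.80 (median 0.52). Of 9 mitochondrial chaperones 0 passed by edgeR (median 0.30), with Grpel1 and Trap1 at the smallest p (log2 fold change 0.70 and 0.47, adjusted p = 0.0617 and 0.166, edgeR, Benjamini-Hochberg). The largest adjusted p among the genes of the sensor, output, folding, transport and degradation lists said here to have changed was 0.0494, for Ddit3 (edgeR, Benjamini-Hochberg). With all 6 libraries 0 genes of these lists passed by edgeR.

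**Figure D4:**
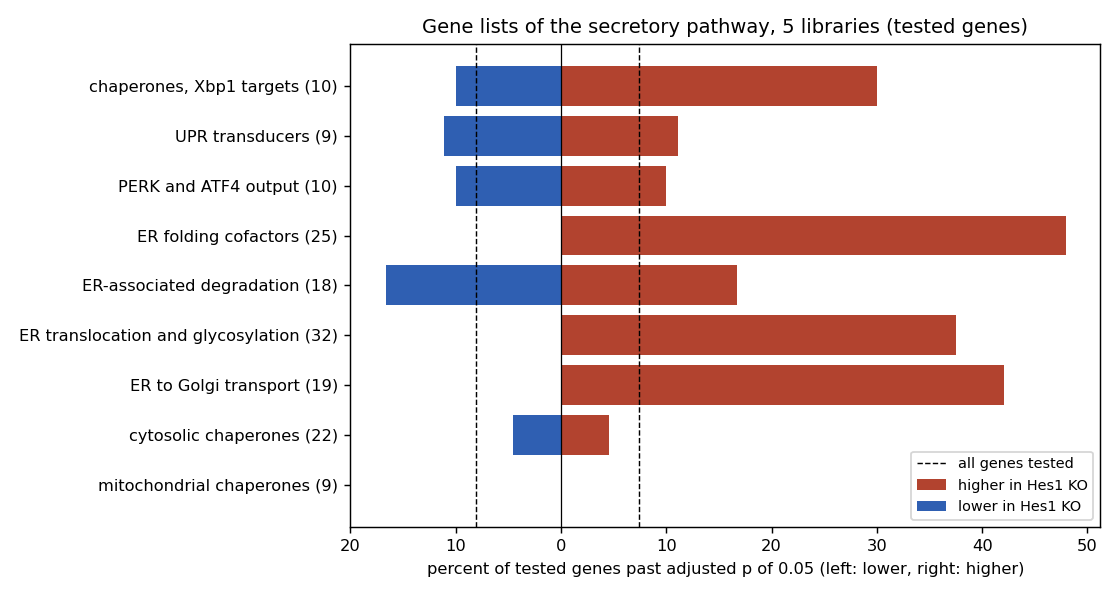
Share of tested genes of each list (number tested in brackets) that passed at adjusted p under 0.05 in the 5 libraries, higher in Hes1 KO to the right and lower to the left; dashed lines give 7.44% and 8.09% of all tested genes. The bars of folding cofactors (12 of 25), translocation and glycosylation (12 of 32) and ER to Golgi transport (8 of 19) point to the right alone.

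Genes were then read by the promoter elements printed above. Of the 4 genes with an ERSE, Hspa5, Hsp90b1, Calr and Canx, 0 passed by edgeR. Each had a higher level in Hes1 KO without WT replicate 1 (log2 fold change 0.66 to 1.06). With all 6 libraries Calr and Canx had lower levels. Of the 5 genes with no exact match in the window 3 rose. Of the others Pdia4 had a higher and Dnajb9 a lower level, and neither passed. Herpud1, the gene of the 10 with an ERSE-II, fell. The table held 33 other genes with an ERSE or ERSE-II in their window, of which 24 were tested without WT replicate 1: 10 had higher levels in Hes1 KO, 3 rose (Creld2 by 1.25, Pdia6 by 1.63 and Krtcap2 by 1.20) and 1 fell (Syvn1), with a median log2 fold change of -0.09. These counts are near the 7.44% of all tested genes that rose, and below the 8.09% that fell. These genes were collected by sequence after the fold changes were known, and they are named for that reason. In WT replicate 1 Creld2 was at 142 scaled CPM from 15 counts, above every Hes1 KO library (30.9 to 46.4). Its log2 fold change was -0.47 with all 6 libraries. Pdia6 was at 284 in WT replicate 1, among the Hes1 KO libraries (221 to 340), and Krtcap2 had 0 counts there.

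Sums of neutrophil and of macrophage markers were higher in every Hes1 KO library than in every WT library. Those of B cell, plasma cell, and T and NK cell markers did not part the groups in this way. The 15 neutrophil markers were each at a higher level without WT replicate 1, with 1 past the threshold, and in Hes1 KO they summed to 4.99% to 13.4% of counts, against 1.11%, 1.58% and 0.0375% in WT replicates 1, 2 and 3, and 4 of them, S100a8 and S100a9 included, were at 0 in WT replicate 1. All 13 tested macrophage markers were higher, 7 past the threshold, with sums of 1.06% to 2.05% against 0.482%, 0.216% and 0.0213%. All 10 B cell markers were lower, 3 past the threshold, with sums of 0.0954% to 0.166% against 0.0227%, 0.56% and 0.299%, and Ebf1, an early B cell factor, fell by 3.51 without WT replicate 1. Of 8 tested plasma cell markers 2 were higher, and past the threshold 1 rose and 2 fell. Beside these counts, 7.44% of all tested genes rose and 8.09% fell. The share of neutrophil markers that rose, 6.67%, was near that of all tested genes. Plasma cell markers summed to 0.0291% to 0.0551% in the Hes1 KO libraries and to 0.00605%, 0.14% and 0.0541% in WT, with 6 of 8 at 0 in WT replicate 1. Markers of T and NK cells took 0.0831% of WT replicate 1 and 0.00322% to 0.00928% of the other libraries. In such mixtures more cells of a type and more RNA per cell cannot be told apart, and the part of these shares in the values of the 10 genes was not tested.

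**Figure D5:**
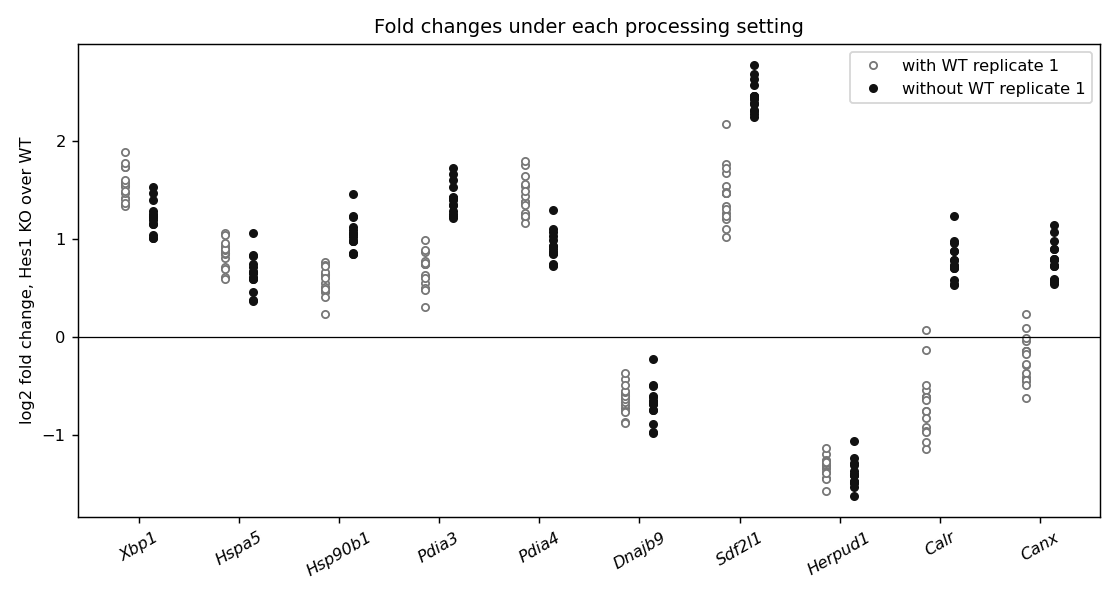
Log2 fold change of the 10 genes under each of 32 processing settings, with WT replicate 1 (open) and without it (filled). Xbp1, Hspa5, Hsp90b1, Pdia3, Pdia4 and Sdf2l1 are above 0 and Dnajb9 and Herpud1 below 0 in all 32, while Calr is above 0 in 16 and Canx in 17.

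The direction of 8 of the 10 genes was the same in every fit that was run, as the plot of settings shows, and only the size and the call varied. The fits share the same libraries, so this sameness of direction is not independent evidence. Herpud1 ranged from -1.62 to -1.07, Sdf2l1 from 1.02 to 2.77, Xbp1 from 1.01 to 1.89 and Pdia3 from 0.31 to 1.72. Hsp90b1 overlaps 1810014B01Rik and Pdia3 overlaps Catsper2 on the opposite strand (GENCODE vM21). These partners had 0 to 152 and 0 to 53 counts, against 102 to 32854 and 62 to 17752, and how the counting shared reads between them is not stated in those sources. Reads of the family members Calr3 and Calr4 were listed apart from Calr.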

How the data were processed

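Libraries were of polyadenylated RNA from a stranded kit, per the labels' protocols. The authors deposited whole-number read counts per gene symbol, whose table name points to featureCounts, with GRCm39, edgeR and limma named in the submitters' processing notes. Aligner, annotation and strand setting, not given in the sources used here, could change these counts. Groups and replicate numbers came from the sample titles. Each library was prepared independently per the labels, but separate animals or cultures are not stated, so the p-values reflect only variation between libraries, which may be technical. No pair of libraries of a group agreed within sampling noise (chi-square per degree of freedom 19.2 to 514).

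Counts were tested with edgeR 4.0.16 (R 4.3.3): filterByExpr, TMM, the quasi-likelihood test with the legacy option off and Benjamini-Hochberg adjustment over all tested genes, threshold 0.05. The fits with all 6 libraries and without WT replicate 1 were both planned, the first as the main test. SE was approximated as the size of the log2 fold change over the root of the F statistic. Other scalings, filters, DESeq2 1.42.0, limma-voom (limma 3.58.1), a replicate block and left-out libraries were tried. The code was tested on simulated data. Members, lists and alternatives were chosen with earlier results of these data known. The genes to name were the 10 genes, Hes1 and the sensors, up to 4 passing genes of each list by size (where none passed, 2 with the smallest p), and of each marker list the 2 with the highest CPM, of which those a sentence needed are named; Creld2, Krtcap2, Calr3 and Calr4 were added after their values were seen.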

Additional observations from a re-analysis of the deposited data

How the results depend on the processing

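With all 6 libraries no setting passed any of the 10 genes at 0.05, nor did edgeR at thresholds of 0.1 and 0.01. The smallest adjusted p values were 0.0534 for Herpud1 by DESeq2, and 0.061 for Sdf2l1 and 0.0648 for Herpud1 by limma-voom. DESeq2 passed 793 genes of the table where edgeR passed 0. Leaving out single libraries gave 0 to 2513 genes and 0 to 4 of the 10, and only the fit without WT replicate 1 passed any. The median log2 fold change of the 10 was 0.46 to 0.86 over these fits. It moved to 0.27 with upper quartile factors and to 0.47 with library totals without erythroid markers. Between libraries of the same replicate number the correlations of deviations were 0.15, 0.01 and 0.24. Hes1 KO replicates 1 and 3 correlated best with the WT library of their own number. Hes1 KO replicate 2 did not, and correlated best with WT replicate 1 (0.02). With the replicate block 0 genes passed with 6 and with 5 libraries.

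The settings of this paragraph lack WT replicate 1. RLE factors passed 2430 genes and 4 of the 10, upper quartile factors 2593 and 2, no filter 1913 and 4, DESeq2 4997 and 6, limma-voom 1440 and 4, and the legacy option 1710 and 3. Hes1 KO against WT replicate 3 alone gave 4809 and 4, and against WT replicate 2 alone 6210 and 5; the single WT library is there assumed to vary like Hes1 KO. Library size alone, totals without erythroid markers, the replicate block and leaving out any Hes1 KO library gave 0 genes. The median of the 10 moved to 1.26 with library size alone, 1.02 with totals without erythroid markers, 1.04 with no filter, 1.06 without WT replicate 2 and 0.95 without Hes1 KO replicate 2. The median over all genes itself moved from 0.02 to 0.44 with library size alone, 0.18 with totals without erythroid markers and -0.19 with upper quartile factors. The cause of these moves was not tested.

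Calr and Canx changed sign. With 6 libraries they were at 0.068 and 0.23 by limma-voom, and Canx at 0.10 with the replicate block. Over the fits that leave out 1 library Calr ranged from -1.07 to 0.78 and Canx from -0.49 to 0.80, both highest without WT replicate 1. Beside that, without WT replicate 1 they were at these values: with RLE factors at 0.71 and 0.73, with upper quartile factors at 0.58 and 0.59, with library size alone at 1.23 and 1.07, with totals without erythroid markers at 0.98 and 0.90, with no filter at 0.96 and 0.98, by DESeq2 at 0.71 and 0.73, by limma-voom at 0.73 and 0.78, with the legacy option at 0.78 and 0.80, with the replicate block at 0.54 and 0.58, without WT replicate 2 at 0.73 and 1.15, without WT replicate 3 at 0.88 and 0.56, and without Hes1 KO replicate 1, 2 or 3 at 0.53 and 0.54, 0.87 and 0.90, and 0.72 and 0.74. The depth of WT replicate 1, with 2 to 24 counts for 5 of the 10 genes and 0 for Pdia4, limits every value that includes it.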
